A study of Mus musculus with 3 samples.

Results

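The genes described here are 10 members of the peroxisome proliferator-activated receptor (PPAR) and lipid uptake programme, namely Pparg, Ppard, Cd36, Lpl, Vldlr, Plin2, Hilpda, Angptl4, Pdk4 and Ucp2. They were chosen by symbol, and each was found among the 33696 genes of the deposited tables. Their transcripts were read as unique molecular identifiers (UMIs, each a captured RNA molecule) in mouse bone marrow cells profiled with the Chromium 3' v3 single-cell kit. The study has 3 libraries, 1 from Fabp4 wild-type, 1 from Fabp4 heterozygous knockout and 1 from Fabp4 homozygous knockout mice. The design text can be read as each library mixing cells of 2 mice of its genotype, and is read so here. Fabp4 encodes a fatty acid carrier of the cytosol that is itself a known PPAR-gamma target. The labels give no age, strain or design of the knockout allele, and do not say whether the marrow carried leukaemia, which the title of the series concerns. Titles of the libraries do not spell out the genotypes, so groups follow the stated genotype of each sample.

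PPAR-gamma and PPAR-delta are nuclear receptors that bind DNA as partners of retinoid X receptors and are activated by fatty acids and their derivatives. Their known targets include genes for taking up fatty acids from lipoproteins, storing them in lipid droplets and burning them in mitochondria. In macrophages and dendritic cells this programme is known for lipid handling and for PPAR-gamma-dependent maturation, and Plin2, Hilpda, Angptl4 and Pdk4 also answer to other signals such as low oxygen or fasting.

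Barcodes with fewer than 500 UMIs or 200 genes, or with 10% or more of their UMIs from mitochondrial genes, were set aside, which left 5604 wild-type, 7957 heterozygous and 4318 homozygous cells. The median kept cell held 10058, 7658 and 9036.5 UMIs in that order. Values below stand in the order wild type, heterozygous, homozygous unless said otherwise. Fabp4, the targeted gene, had 50, 38 and 5 UMIs, or 0.745, 0.521 and 0.108 CPM (counts per 1000000 UMIs), so it was scarce in all 3 and lowest in the homozygous library; reads from the 3' end may lie outside the deleted part. Each pair of libraries shared between 21 and 26 cell barcodes. The share of kept cells with Xist but no Y-linked RNA was 91.9%, 14.4% and 84.2%, and 1.32%, 56.6% and 3.29% had Y-linked RNA only, so the heterozygous library differed from the others in the sex of its cells, which cannot be told apart from genotype. There is 1 library per genotype, so no test between genotypes was possible. Intervals are 95% exact counting intervals; they cover counting error only and not the spread between animals. Both knockout libraries were compared with the same wild-type library.

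Cells were assigned to classes by fixed marker lists. The monocyte-like class (Csf1r, Ccr2, Ly6c2, F13a1 and others) held 1311, 1096 and 1539 cells, and the dendritic-like class (Cd74, H2-Aa, Ciita, Cd209a and others) 68, 310 and 61 cells, while 1340, 1466 and 1171 cells got no class. All 10 markers of the monocyte list were detected in the monocyte-like cells of every library. That list set the class, and all 12 stem and progenitor markers were detected there too, so this is no separate evidence for the class. In dendritic-like cells Xcr1 was at 0 in the wild-type and heterozygous libraries and Clec9a was at 0 in the wild-type library. The cells were also clustered with the 10 genes left out, and the monocyte-like cells came from different clusters in each library. Cluster 2 (led by Hbb-bs, Kif26b, Cacna1e and Gpr183) held 39.7%, 27.4% and 25.3% of them, cluster 6 (led by interferon-response genes such as Ifit3) held 16.6%, 53.7% and 51.7%, and the dividing cluster 9 held 8.85%, 8.49% and 19.9%. Cluster 13, led by Saa3, Vcan and Adgre4, held 30.7%, 4.93% and 0.975%. Values within these clusters therefore stand beside the class values. Cluster 12 held 88.2%, 92.9% and 90.2% of the dendritic-like cells; immunoglobulin genes and Jchain, known from plasma cells, led it beside the class II genes H2-Aa, H2-Eb1, H2-Ab1 and Cd74, so it is called by its number. The 4 plasma cell markers summed to 33.7, 41.7 and 44.1 CPM in the gated dendritic-like cells, with Jchain at 0 in the wild-type and heterozygous ones and Derl3 at 0 in all 3 libraries.

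The promoters of 8 of the 10 genes are in the RefSeq table for GRCm38.p6, with 12 start sites, as 250 bases before to 50 after each start. Motifs were searched in the 250 upstream bases on both strands. The PPAR direct repeat AGGTCANAGGTCA was found in 0.0335% of all 32851 promoters and in 0 of the 12. The single half-site AGGTCA, which the direct repeat contains, was found in 14.0% of all promoters and in 4 of the 12, those of Cd36, Plin2 and 2 of the 3 Pparg starts. ACGTG, the core that hypoxia-inducible factors bind and a stretch that the E-box CACGTG (6.02% of all promoters, 0 of the 12) also contains, was found in 16.6% of all promoters and in 2 of the 12, at Ppard and the second Hilpda start. The windows around these matches are shown because they set the members with a match apart from those without. A match is a description of letters, and says nothing of binding. The capitals mark AGGTCA or its reverse complement TGACCT in the first 4, and ACGTG or CACGT in the others. Sequences are 5′ to 3′ on the strand of the gene.
Pparg, first start, chr6:115361104-115361133, plus strand: agccgccgcctcAGGTCAgagtcgccccgg
Pparg, second start, chr6:115362319-115362348, plus strand: ttttatataagggacgcgaggAGGTCAaga
Cd36, chr5:17836107-17836136, minus strand: ctctgcactttaTGACCTgagattttcagg
Plin2, chr4:86670260-86670289, minus strand: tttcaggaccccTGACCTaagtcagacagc
Ppard, chr17:28232529-28232558, plus strand: agctgctgctccCACGTctgactgcagagg
Hilpda, second start, chr6:29272571-29272600, plus strand: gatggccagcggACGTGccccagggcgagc
The half-site lay 28 and 9 bases before the first and second Pparg starts, 228 before the Cd36 start and 218 before the Plin2 start. Cd36 was the 1 start of the 12 whose bases after the start were not found in a GENCODE M21 transcript, so its place is less sure. The hypoxia core lay 43 bases before the second Hilpda start and 213 before the Ppard start. Of the others, Lpl lies in the GENCODE M21 annotation of GRCm38 at chr8:68880491-68907448 on the plus strand and Angptl4 at chr17:33773750-33781830 on the minus strand; all 10 genes are protein-coding there.

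Lpl was lower in homozygous than in wild-type monocyte-like cells. Lpl encodes lipoprotein lipase, which frees fatty acids from the triglyceride of lipoproteins. Monocyte-like cells held 465, 279 and 220 Lpl UMIs. Their levels were 30.6 CPM (27.8 to 33.5) in wild-type, 27.0 (23.9 to 30.4) in heterozygous and 11.5 (10 to 13.1) in homozygous cells. The homozygous library was low, and its interval did not overlap those of the others, which overlapped each other. The log2 ratio of homozygous over wild type was -1.41 (-1.65 to -1.18), a level 2.66-fold lower, and that of heterozygous over wild type was -0.18 (-0.40 to 0.04). The share of monocyte-like cells with a Lpl UMI was 17.6%, 12% and 5.98%. After each cell was thinned to 1000 UMIs it was 3.51%, 2.48% and 1.57%, in the same order of libraries. Mature neutrophil-like cells, which are not known for lipoprotein lipase, had a Lpl UMI in 0 of 160 wild-type cells (an upper limit of 1.88% for that count), 0.510% of heterozygous cells and 0 of 173 homozygous cells (upper limit 1.73%). Their median depth was 5283.5, 5194 and 5672 UMIs, against 10228, 8681.5 and 10909 in monocyte-like cells.

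**Figure D1:**
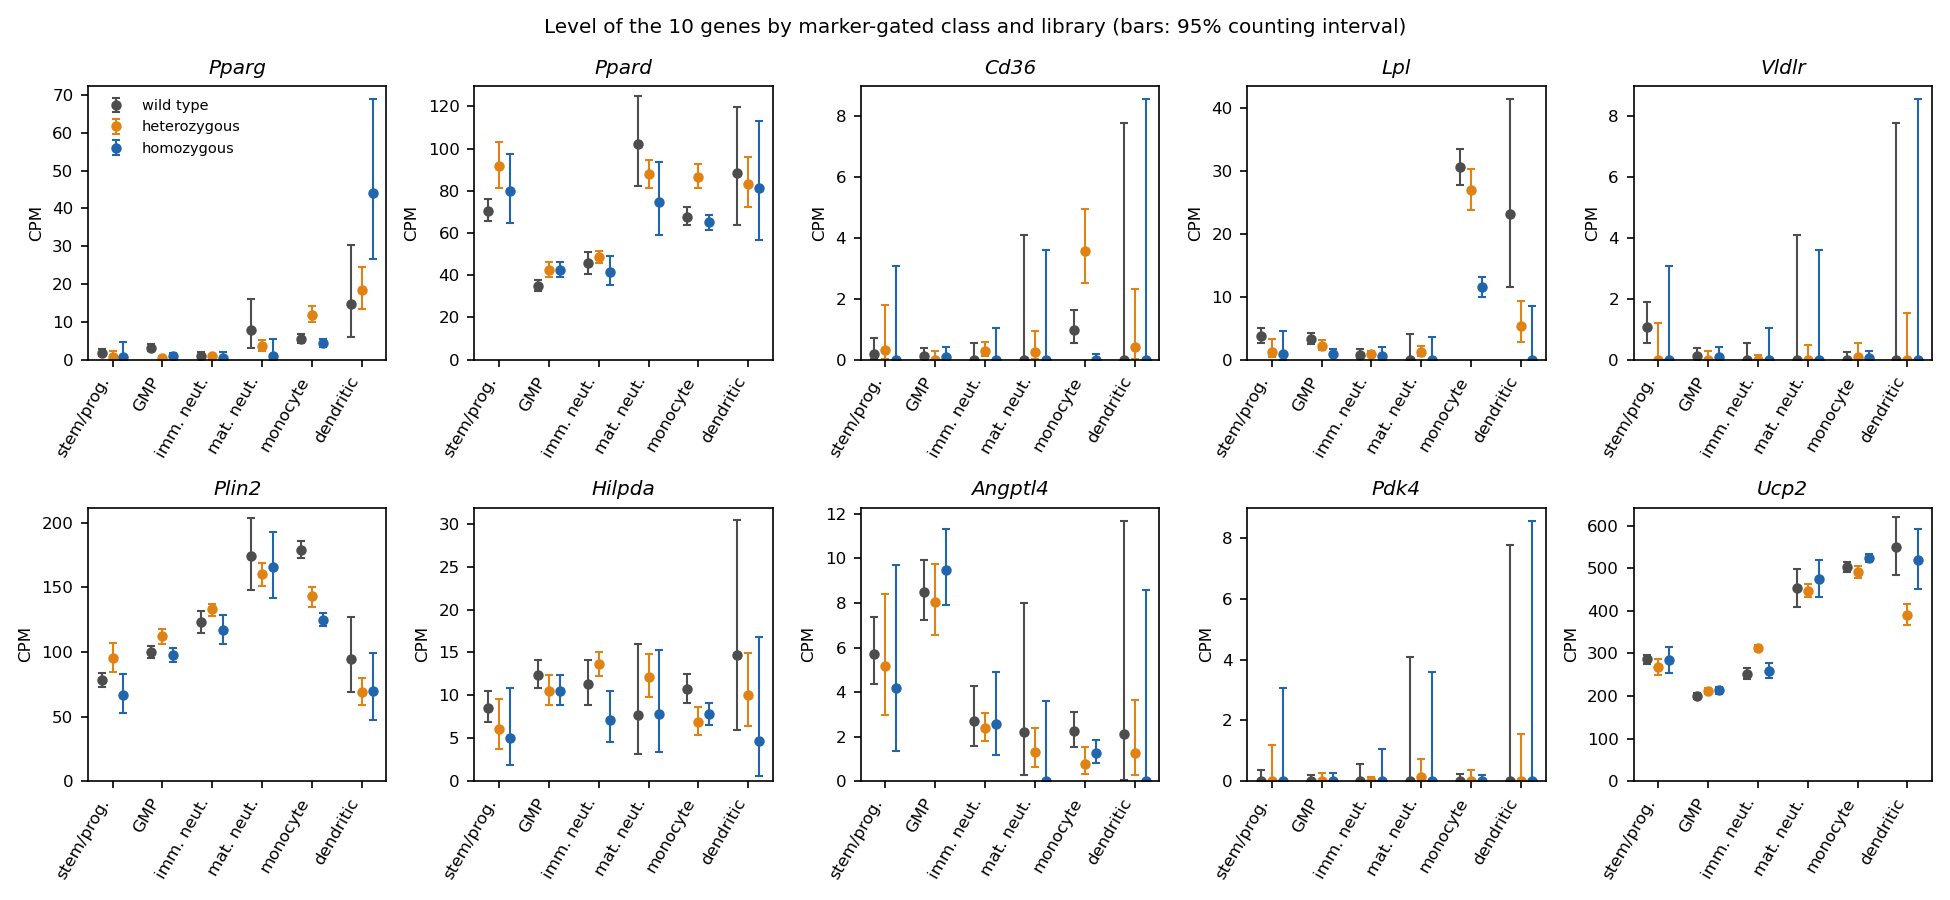
Level of each gene in CPM (y axis, linear, starting at 0) in 6 marker-gated classes (x axis: stem and progenitor-like, granulocyte-monocyte progenitor-like (GMP), immature neutrophil-like, mature neutrophil-like, monocyte-like and dendritic-like cells), with a point for each library and its 95% counting interval. Lpl stands out in monocyte-like cells at 30.6, 27.0 and 11.5 CPM, Angptl4 is highest in GMP-like cells in each library, and the wide intervals of Cd36, Vldlr and Pdk4 come with counts near 0.

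Lpl was also lower within the clusters that hold most monocyte-like cells. In cluster 2 the level was 33.5, 27.0 and 4.47 CPM, a log2 ratio of -2.91 (-3.50 to -2.36) for homozygous over wild type and -0.31 (-0.62 to -0.01) for heterozygous over wild type. In cluster 6 it was 72.5, 37.8 and 20.7 CPM, with log2 ratios of -1.81 (-2.13 to -1.49) and -0.94 (-1.24 to -0.64). Both clusters had the homozygous library lowest, and in cluster 6 no intervals of the 3 libraries overlapped. The dividing cluster 9 differed, with 2.68, 3.35 and 4.60 CPM and a log2 ratio of 0.78 (-0.01 to 1.61) for homozygous over wild type. Cluster 13 held Lpl at 12 and 11.6 CPM in the first 2 libraries, and the 19 homozygous cells had 0 UMIs.

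Few cells carried much of the Lpl signal. Cells with at least 3 Lpl UMIs, a limit set after the values were seen, numbered 63, 39 and 25 over all classes and held 47.1%, 51.9% and 54.1% of the Lpl UMIs. Of these cells 47, 29 and 23 were monocyte-like, which is 3.59%, 2.65% and 1.49% of that class. The homozygous library thus had fewer such cells among its monocyte-like cells. Their own mean level was of like size in the 3 libraries, at 379, 509 and 473 CPM, which the limit of 3 UMIs in part sets. Since UMIs of 1 gene cluster in cells, a counting interval is narrower than the true uncertainty.

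**Figure D2:**
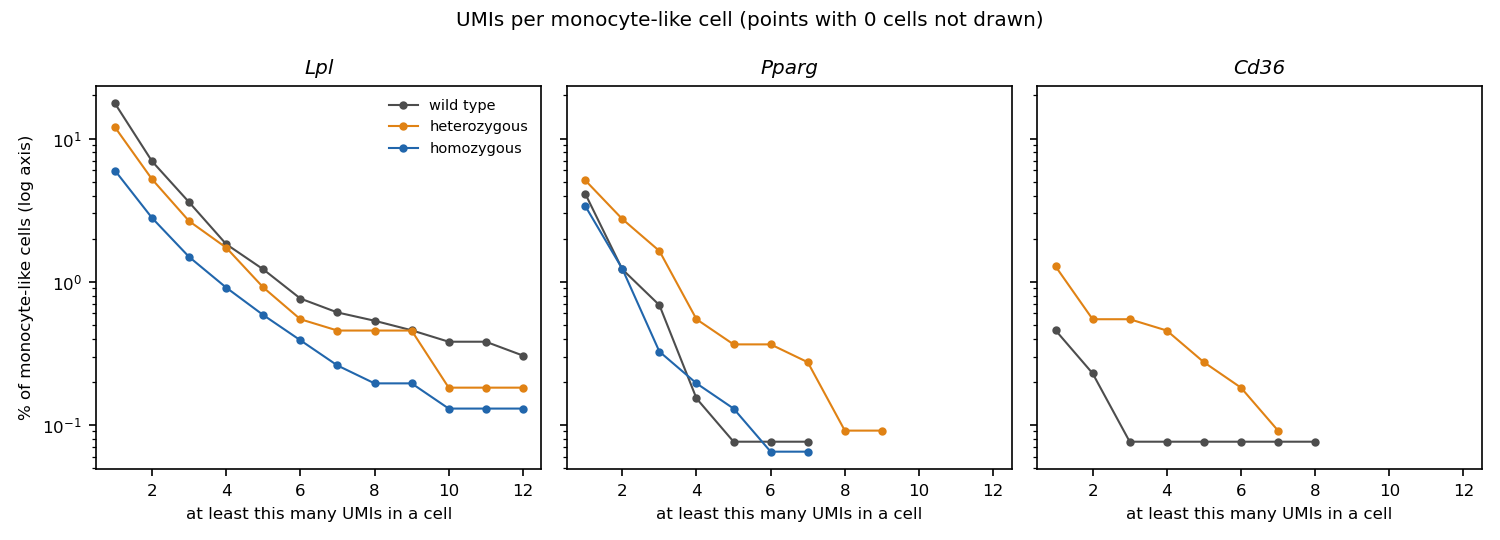
Percent of monocyte-like cells (y axis, log scale) with at least the number of UMIs on the x axis, for Lpl, Pparg and Cd36, with a line for each library. For Lpl the homozygous line lies below the others over the range drawn, starting at 5.98% of cells against 17.6% in the wild-type library, and for Cd36 there is no homozygous line because no homozygous monocyte-like cell had a UMI.

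Split by sex-linked RNA, Lpl in monocyte-like cells with Xist only was 29.6, 22.3 and 9.68 CPM in 1245, 340 and 1374 cells, so the homozygous level was low among these cells too. Homozygous monocyte-like cells with Y-linked RNA only were 37, and held 17 Lpl UMIs (48.0 CPM, 28.0 to 76.9). This interval did not overlap that of the homozygous cells with Xist only (8.27 to 11.3). How many of the 37 cells carried the 17 UMIs is not given here. Lpl UMIs cluster in cells, so both counting intervals are narrower than the true uncertainty. No difference between these sets of cells is therefore read from them. Heterozygous cells with Y-linked RNA only held Lpl at 32.1 CPM (27.2 to 37.7), and the 6 such wild-type cells held 0 Lpl UMIs. Whether the mice of a pool differed was not tested, since no file ties a cell to a mouse.

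Immature neutrophil markers were also lowest in the homozygous library: the 8 genes of that list summed to 4630.1, 3093 and 1681 CPM in monocyte-like cells, with none of them at 0. Their median over single cells was 2107, 2261 and 729.5 CPM. Macrophage markers, 10 genes including C1qa and Cd5l, summed to 143, 177 and 117 CPM, with C1qa at 0 in both knockout libraries and Cd5l at 0 in all 3. Adipocyte markers, the 7 genes of a cell type rich in Lpl, summed to 1.12, 1.45 and 0.679 CPM, and Lep and Plin4 were at 0 in every library. Immature neutrophil-like cells themselves held Lpl at 0.752, 0.891 and 0.571 CPM. The part of immature neutrophil RNA in the Lpl result was not tested.

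Lpl was 3.32, 2.22 and 0.970 CPM in granulocyte-monocyte progenitor-like cells (63, 29 and 13 UMIs), with a log2 ratio of -1.78 (-2.76 to -0.90) for homozygous over wild type. In the clusters named for that class, Lpl was 1.19, 1.45 and 0.467 CPM (cluster 1) and 0.963, 1.59 and 0.608 CPM (cluster 3). Cluster 14, also so named, held 242, 10 and 27 cells, with Lpl at 2.44, 0 and 1.39 CPM. In each of these clusters the wild-type and homozygous intervals overlapped. Clusters 1, 3 and 14 held 9, 8 and 10 wild-type Lpl UMIs, so most of the 63 in the wild-type class lay in other clusters. The part of the cluster mix in this class ratio was not tested. Cells of the stem and progenitor-like class held 38, 4 and 1 Lpl UMIs. In dendritic-like cells the counts were 11, 13 and 0 UMIs, or 23.2, 5.42 and 0 CPM. The wild-type dendritic-like value came from 2 cells, 1 of them with 6 UMIs. Against a floor of 3 counts the homozygous dendritic-like level was at least 3.32-fold below the wild-type point value. This bound leaves out the wild-type counting error. Heterozygous over wild type had a log2 ratio of -2.10 (-3.37 to -0.79). In all 3 libraries monocyte-like cells had the highest Lpl level among the 6 classes with at least 50 cells, though in the wild-type library the dendritic-like interval (11.6 to 41.5) held the monocyte-like value.

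Cd36 encodes a scavenger receptor and fatty acid translocase of the cell surface, which takes up oxidised lipoproteins and long-chain fatty acids. It was nearly absent from these cells. Monocyte-like cells held 15, 37 and 0 Cd36 UMIs, or 0.986 CPM (0.552 to 1.63), 3.58 CPM (2.52 to 4.94) and 0. The wild-type UMIs lay in 6 cells, with 8 of them in 1 cell, and the heterozygous UMIs in 14 cells. Heterozygous over wild type was a log2 ratio of 1.86 (0.96 to 2.83). Heterozygous cells with Xist only held 18 UMIs in 340 cells (5.73 CPM, 3.40 to 9.05). Those with Y-linked RNA only held 3 UMIs in 475 cells (0.647 CPM, 0.133 to 1.89). The rest of the 37 heterozygous UMIs lay in cells with both kinds of RNA or with neither. The signal thus cannot be placed in cells of 1 sex. Wild-type cells with Xist only held 0.958 CPM (0.524 to 1.61). The homozygous level was at least 6.29-fold below the wild-type point value against a floor of 3 counts, with the wild-type counting error left out. A count of 0 in 1539 cells allows a share of cells with a UMI of up to 0.195%. Of the 14 heterozygous monocyte-like cells with Cd36, 8 also had a Pparg UMI (57.1%), against 5.11% of the whole class, and in the wild-type library 3 of 6 did.

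Vldlr encodes a receptor for triglyceride-rich lipoproteins that works beside lipoprotein lipase. It had 15, 3 and 2 UMIs over all kept cells. Stem and progenitor-like cells held 11 of the 15 wild-type UMIs, and 1 cell had 4 of them. No difference in Vldlr between libraries could be judged within monocyte-like cells, which held 0, 1 and 1 UMIs.

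Pparg encodes the receptor PPAR-gamma. Dendritic-like cells had the highest Pparg level of the 6 classes in every library, with 7, 44 and 19 UMIs. The levels were 14.7 CPM (5.93 to 30.4), 18.3 CPM (13.3 to 24.6) and 44.1 CPM (26.6 to 68.9). The homozygous library was highest, and its interval overlapped that of the wild-type library but not that of the heterozygous one. Homozygous over wild type was a log2 ratio of 1.58 (0.27 to 3.08), and heterozygous over wild type 0.32 (-0.85 to 1.71). The 19 homozygous UMIs came from 8 of 61 cells, and the 7 wild-type UMIs from 4 of 68. Over all cells of cluster 12, gated or not, the order of the libraries was different, at 27.2, 17.1 and 48.7 CPM (21, 62 and 27 UMIs), and the log2 ratio of homozygous over wild type was 0.84 (-0.04 to 1.73). Immature neutrophil markers summed to 2374, 4283 and 465 CPM in dendritic-like cells, with Ly6g at 0 in the homozygous ones, and their part in the Pparg result was not tested.

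In monocyte-like cells Pparg was highest in the heterozygous library. It had 84, 123 and 83 UMIs, or 5.52 CPM (4.40 to 6.84), 11.9 CPM (9.90 to 14.2) and 4.33 CPM (3.45 to 5.37). The wild-type and homozygous intervals overlapped, and the heterozygous one lay above both. Log2 ratios over wild type were 1.11 (0.70 to 1.53) for the heterozygous and -0.35 (-0.80 to 0.11) for the homozygous library. The shares of cells with a UMI were closer than the levels, at 4.12%, 5.11% and 3.38%, and 0.840%, 1.29% and 0.457% after thinning. Mature neutrophil-like cells, which are shallower (medians above) and not known for Pparg, had a UMI in 3.12%, 0.948% and 0.578% of cells, and in 1.26%, 0.223% and 0% after thinning. In the wild-type library the thinned shares came from 11 of 1310 monocyte-like and 2 of 159 mature neutrophil-like cells. Those 2 cells are too few to set a background, so the monocyte-like share was not shown to lie above it.

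Part of the heterozygous excess lay in a small group of cells with many Pparg UMIs. Cells with at least 3 Pparg UMIs numbered 13, 42 and 13 over all classes and held 24.3%, 57.5% and 35.5% of all Pparg UMIs. Of the 123 heterozygous UMIs in monocyte-like cells, 59 (48.0%) were in cluster 13, which held 4.93% of those cells. The wild-type share was alike, at 40 of 84 UMIs (47.6%), but in 30.7% of the monocyte-like cells. Over all cells of cluster 13, gated or not, Pparg was 12 CPM in 475 wild-type cells, 309 CPM (259 to 366) in 96 heterozygous cells and 84.7 CPM (43.8 to 148) in 19 homozygous cells. Of the 96 heterozygous cells 46 had a Pparg UMI, with at most 8 in 1 cell. Cd36 followed the same cells, with 35 of the 73 heterozygous UMIs there (81.3 CPM), against 0.827 CPM in the wild-type and 0 in the homozygous library.

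The cells of cluster 13 were not alike in the 3 libraries, as genes picked after their values were seen show. Adgre4, an adhesion receptor of myeloid cells, was at 10.3, 704 and 176 CPM in the cells of that cluster. Ace, the angiotensin-converting enzyme, was at 8.48, 130.0 and 148 CPM, and Treml4, a myeloid receptor, at 13.4, 116 and 134 CPM. Ly6c2, a surface protein of classical monocytes, was at 1087, 272 and 544 CPM, and Vcan at 151, 2.32 and 70.6 CPM. The cluster's cells in the knockout libraries were thus higher in Adgre4, Ace and Treml4 and lower in Ly6c2 and Vcan than those in the wild-type library. Of the macrophage markers, C1qa was at 0 in this cluster in each library, while Adgre1 was at 124, 459.8 and 268 CPM. The whole macrophage list summed to 137, 462 and 275 CPM there, highest in the heterozygous cells. The heterozygous cells were also shallower, with a median of 3805.5 UMIs against 9537 in the wild-type library. Without cluster 13 the heterozygous over wild-type ratio of Pparg in monocyte-like cells was 0.65 (0.07 to 1.24) and that of Cd36 was 0.35 (-0.92 to 1.65).

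Cluster 2 had Pparg at 1.48, 5.40 and 4.32 CPM, where both knockout libraries were above wild type (log2 ratios 1.87, 0.86 to 2.95, and 1.55, 0.56 to 2.62). Cluster 6 had it at 8.79, 8.30 and 5 CPM, where the intervals of the ratios included 0. Cluster 9 had it at 1.34, 2.43 and 3.15 CPM, with a homozygous ratio of 1.23 (0.17 to 2.40), and the homozygous ratio in cluster 13 was 2.82 (1.79 to 3.73). In 3 of the 4 clusters the homozygous level was thus above wild type, against the class ratio of -0.35. These levels came from few cells. In cluster 13 the 12 homozygous UMIs lay in 4 of 19 cells, with 7 of them in 1 cell. Cells with a Pparg UMI were 10 wild-type and 16 homozygous in cluster 2, and 8 and 16 in cluster 9. Over whole clusters in place of the gate the homozygous ratio was 0.13 (-0.27 to 0.54), and weighted to the wild-type cluster mix it was 3.01, so no direction can be given for Pparg in homozygous monocyte-like cells. Granulocyte-monocyte progenitor-like cells showed the opposite order from monocyte-like cells for the heterozygous library, with 60, 5 and 14 Pparg UMIs (3.16, 0.383 and 1.04 CPM). Clusters 1, 3 and 14 were named for that class. Cluster 14 held 242, 10 and 27 cells, with Pparg at 7.57, 0 and 2.78 CPM. Cluster 1 had Pparg at 1.06, 0.544 and 0.467 CPM and cluster 3 at 2.89, 1.38 and 0.486 CPM. The part of the cluster mix in this class value was not tested.

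Ppard encodes PPAR-delta, the most widely expressed receptor of the family. Monocyte-like cells held 1032, 895 and 1245 Ppard UMIs, or 67.8 CPM (63.8 to 72.1), 86.7 (81.1 to 92.5) and 65.0 (61.4 to 68.7). The heterozygous level was the highest, with a log2 ratio of 0.35 (0.22 to 0.48), and the homozygous ratio was -0.06 (-0.18 to 0.06). Neither passed 2-fold. The heterozygous level was above wild type also in cluster 2 (0.29, 0.11 to 0.47) and cluster 6 (0.32, 0.06 to 0.58). Dendritic-like cells held 88.5, 83.4 and 81.3 CPM with overlapping intervals. In the wild-type and heterozygous libraries granulocyte-monocyte progenitor-like cells had the lowest Ppard level of the 6 classes, at 34.9 and 42.6 CPM.

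Plin2 encodes perilipin 2, the coat protein of small lipid droplets. Monocyte-like cells held 2730, 1473 and 2396 Plin2 UMIs, or 179 CPM (173 to 186), 143 CPM (135 to 150.1) and 125 CPM (120.2 to 130.2). No intervals overlapped, and the wild-type library was highest. The log2 ratios were -0.33 (-0.42 to -0.24) and -0.52 (-0.60 to -0.44), both within 2-fold. The clusters differed among themselves. In cluster 2 Plin2 was 111, 116 and 115 CPM, and in cluster 6 it was 160.5, 164 and 159.9 CPM, with homozygous ratios of 0.05 (-0.09 to 0.19) and -0.01 (-0.17 to 0.17). In the dividing cluster 9 Plin2 was 104, 99.8 and 88.4 CPM, with a homozygous ratio of -0.23 (-0.38 to -0.09). The ratios in cluster 13 were -0.41 (-0.72 to -0.11) for the heterozygous and -0.91 (-1.59 to -0.31) for the homozygous library. Cluster 13 held 292, 221 and 155 CPM and 45.7% of the wild-type monocyte-like Plin2 UMIs, against 3.73% and 0.668% in the heterozygous and homozygous libraries. Without cluster 13 the ratios were 0.05 (-0.06 to 0.15) for the heterozygous and -0.13 (-0.22 to -0.03) for the homozygous library. When each library's clusters were instead weighted to the wild-type mix, the ratios were -0.24 and -0.37, on 54 heterozygous and 15 homozygous monocyte-like cells of cluster 13. The homozygous Lpl ratio without cluster 13 was -1.72 (-1.96 to -1.48).

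**Figure D3:**
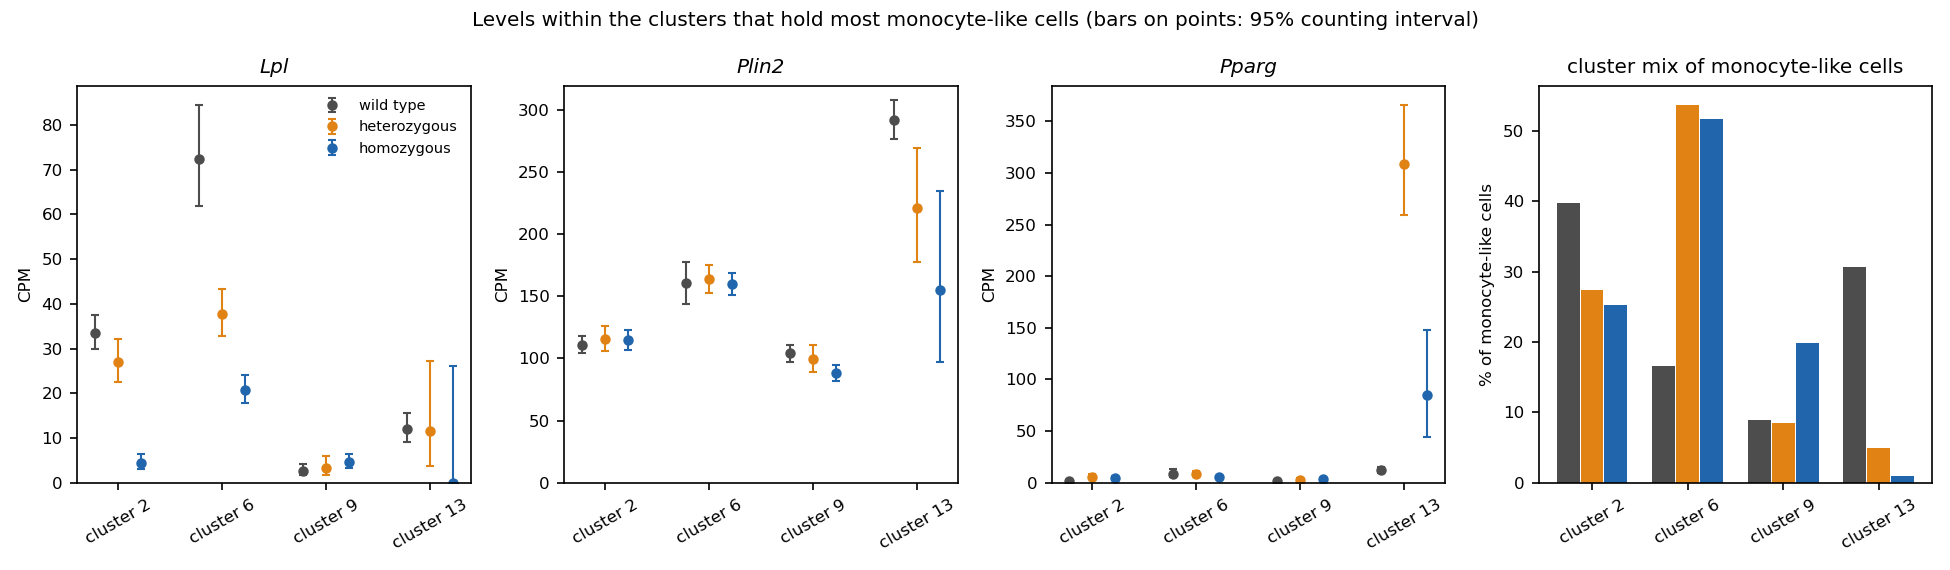
Left 3 panels: level in CPM (y axis, linear from 0) of Lpl, Plin2 and Pparg in clusters 2, 6, 9 and 13, with a point for each library and its 95% counting interval. Right panel: percent of each library's monocyte-like cells in these clusters (bars from 0). Lpl differs within clusters 2 and 6 (33.5 against 4.47 CPM and 72.5 against 20.7 CPM, wild type against homozygous), Plin2 is level there, and Pparg stands out in heterozygous cluster 13 at 309 CPM.

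Plin2 was spread over all classes. Mature neutrophil-like cells held it at 174, 160.3 and 166 CPM and granulocyte-monocyte progenitor-like cells at 100.1, 112 and 97.6 CPM, with homozygous ratios of -0.07 (-0.39 to 0.26) and -0.04 (-0.14 to 0.07). Dendritic-like cells held 45, 165 and 30 UMIs (94.8, 68.8 and 69.7 CPM), and the intervals of both ratios included 0.

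Hilpda encodes a small lipid droplet protein, induced by low oxygen, that inhibits the lipase of stored triglyceride. Monocyte-like cells held 163, 71 and 149 Hilpda UMIs, or 10.7, 6.88 and 7.78 CPM. Both knockout libraries were lower, with log2 ratios of -0.64 (-1.06 to -0.23) for the heterozygous and -0.46 (-0.79 to -0.13) for the homozygous library, within 2-fold. In clusters 2 and 6 the levels were 10.7, 5.82 and 8.20 CPM and 9.23, 6.82 and 10.4 CPM, and cluster 13 held 39.9% of the wild-type UMIs. Without cluster 13 the ratios were -0.42 (-0.89 to 0.04) and -0.21 (-0.58 to 0.18). Levels over the 6 classes spanned 7.76 to 14.7 CPM in the wild-type library.

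Angptl4 encodes a secreted inhibitor of lipoprotein lipase. Its level was highest in granulocyte-monocyte progenitor-like cells in each library, with 161, 105 and 127 UMIs or 8.49, 8.05 and 9.47 CPM. Neither ratio there was apart from 0 (-0.08, -0.45 to 0.29, and 0.16, -0.19 to 0.50). Monocyte-like cells held 34, 8 and 24 UMIs (2.23, 0.775 and 1.25 CPM), with log2 ratios of -1.53 (-2.85 to -0.39) for the heterozygous and -0.83 (-1.65 to -0.04) for the homozygous library. The lipase and its inhibitor were thus highest in different classes. Of the wild-type monocyte-like Angptl4 UMIs 35.3% were in cluster 13, against 0 in the knockout libraries.

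Pdk4 encodes a kinase that shuts off pyruvate dehydrogenase and spares glucose. It had 1, 5 and 1 UMIs in all kept cells, and 4 of the 5 heterozygous UMIs were in stromal-like cells. Ucp2 encodes an uncoupling protein of the inner mitochondrial membrane. Monocyte-like cells held Ucp2 at 503, 490.1 and 524 CPM, with log2 ratios of -0.04 (-0.09 to 0.01) and 0.06 (0.02 to 0.10), and 95.3%, 93.2% and 94.0% of these cells had a UMI. In dendritic-like cells it was 549.7, 391 and 518 CPM, where the heterozygous library was lower (-0.49, -0.69 to -0.29). Granulocyte-monocyte progenitor-like cells had the lowest Ucp2 level of the 6 classes in the wild-type library, at 199 CPM.

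A few cells outside the 6 classes were rich in these genes. In the heterozygous library 7 macrophage-like cells held 41 Lpl UMIs (32 in 1 cell), 18 Cd36 UMIs (12 in 1 cell) and 7 Pparg UMIs. Its 4 mesenchymal stromal-like cells held 16 Pparg UMIs (13 in 1 cell), 10 Lpl, 6 Angptl4 and 4 Pdk4 UMIs. The wild-type library had 2 macrophage-like and 3 stromal-like cells and the homozygous library 1 and 3, so these levels could not be compared.

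**Figure D4:**
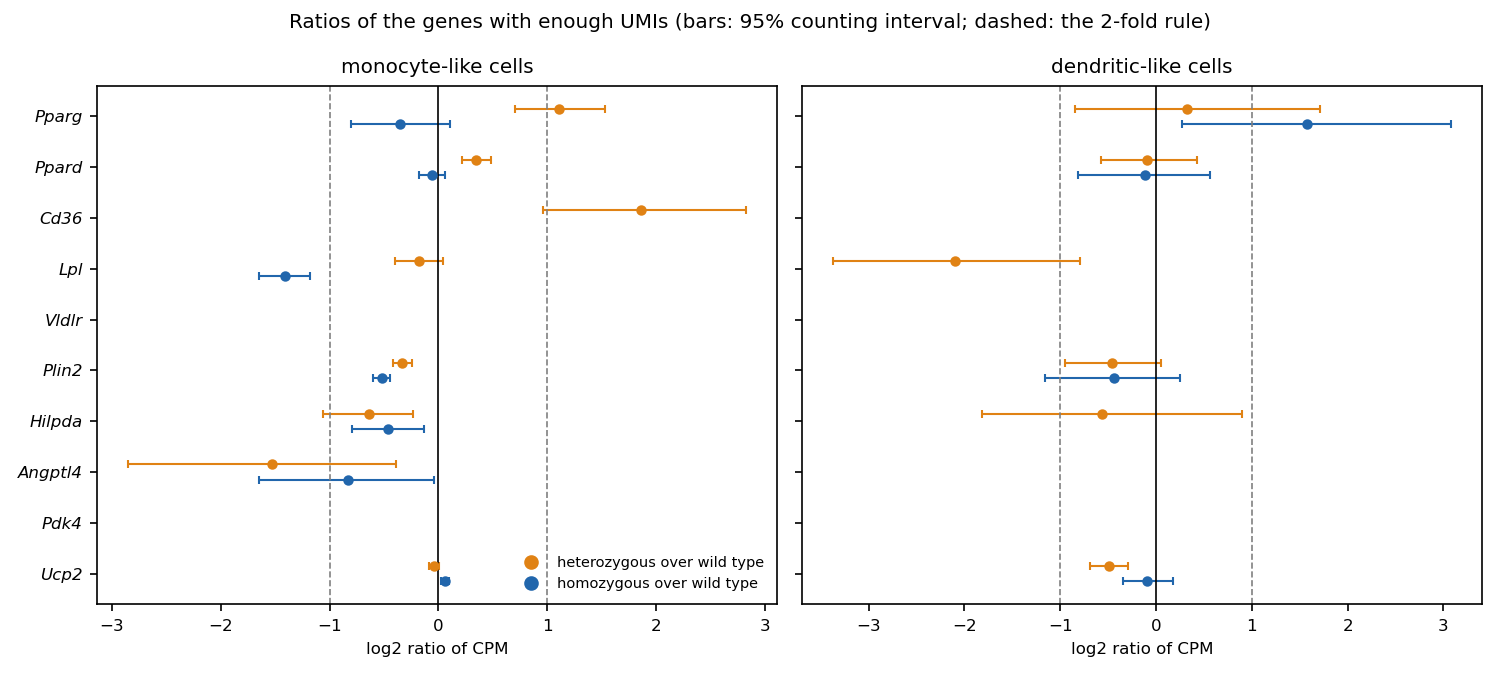
Log2 ratio of CPM (x axis) for the genes that reached 20 UMIs over both libraries, in monocyte-like cells (left) and dendritic-like cells (right), with the 95% counting interval as bars and the 2-fold limits dashed. Homozygous Lpl lies at -1.41 in monocyte-like cells, heterozygous Pparg and Cd36 at 1.11 and 1.86, and homozygous Pparg at 1.58 in dendritic-like cells; genes without a point had too few UMIs or a count of 0.

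The members were set against all genes by counting those past 2-fold among genes that reached 20 UMIs over both libraries of a comparison. In monocyte-like cells 7 members could be counted for homozygous over wild type, of which 0 were higher and 1, Lpl, was lower, against 4.70% higher, 3.94% lower and 8.64% in either direction among all genes. Their median log2 ratio was -0.46, against 0.09 over all genes. For heterozygous over wild type 8 could be counted, with 2 higher (Pparg and Cd36) and 1 lower (Angptl4), against 2.91% higher, 3.53% lower and 6.44% in either direction, and the medians were -0.11 for the members and -0.00 for all genes. In dendritic-like cells 1 of 4 members was past 2-fold for the homozygous library (Pparg, higher; 10.5% of all genes) and 1 of 6 for the heterozygous library (Lpl, lower; 12%). With counts this small the members' shares say little about the list as such.

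In granulocyte-monocyte progenitor-like cells 2 of 7 members, Pparg and Lpl, were past 2-fold and lower in the homozygous library (7.02% of all genes), and Pparg alone in the heterozygous library (7.44%). In stem and progenitor-like cells Lpl alone was lower in the homozygous library, 1 of 6 (10.5%), and Pparg and Lpl in the heterozygous library, 2 of 7 (8%), on 1 to 4 UMIs in the knockout library. Immature neutrophil-like cells had none past 2-fold, with 6.08% and 7.18% of all genes past it for the homozygous and heterozygous libraries. In mature neutrophil-like cells 0 of 3 passed for the homozygous library (8.79%) and 1 of 5, Pparg, for the heterozygous library (14.5%). Over all kept cells 1 of 8 passed in each comparison, Cd36 each time, lower in the homozygous (8.43% of all genes) and higher in the heterozygous library (12.6%).

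Other genes of the pathway were taken from 4 lists. Of 16 PPAR partners and coregulators 13 could be counted in monocyte-like cells for homozygous over wild type and none passed 2-fold; the corepressor gene Ncor1 was at 313 against 318 CPM in the wild-type library. In dendritic-like cells Fabp5, a fatty acid carrier known to feed PPAR-delta, was at 39.5 CPM in the homozygous and 17.1 in the heterozygous against 8.42 in the wild-type library, on 17, 41 and 4 UMIs. The log2 ratios were 2.23 (0.61 to 4.26) and 1.02 (-0.44 to 2.96). It was 1 of 11 genes of that list past 2-fold there in each comparison, a share near the 10.5% and 12% of all genes. Of 27 other PPAR target and droplet genes 21 were counted in homozygous monocyte-like cells, 0 of them past 2-fold, with a median of -0.25 against 0.09 over all genes. In the heterozygous library 20 were counted and 2 were higher, against 2.91% of all genes. These were G0s2, an inhibitor of triglyceride lipase, at 21.3 against 2.10 CPM (log2 ratio 3.34, 2.80 to 3.92), and Mgll, the monoglyceride lipase gene, at 7.65 against 3.75 CPM. Mature neutrophil markers summed to 554 CPM in those cells against 477 in the wild-type ones, and their part in the G0s2 value was not tested.

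Of 19 genes of lipoprotein and fatty acid uptake 17 were counted in monocyte-like cells in each comparison, and 1 passed 2-fold in each, near the 8.64% (homozygous) and 6.44% (heterozygous) of all genes. Olr1, a receptor for oxidised low-density lipoprotein, was the 1 past 2-fold in the homozygous library, lower at 10.1 against 21.6 CPM (-1.09, -1.35 to -0.83). Apoc2, the activator that lipoprotein lipase needs, was the 1 in the heterozygous library, lower at 305 against 611 CPM (-1.01, -1.06 to -0.95), and stood at 490.0 CPM in the homozygous library. Of 14 hypoxia-response genes measured 13 were counted, and 1 passed in each comparison, again near those shares. Egln3, an oxygen-sensing hydroxylase gene, was lower in the homozygous library (2.35 against 6.24 CPM), while Ddit4, a stress-induced inhibitor of mTOR signalling, was higher in the heterozygous library (20.1 against 9.66 CPM). The medians of these lists in homozygous monocyte-like cells were -0.32 and -0.30, below the 0.09 of all genes. That of the PPAR partners was 0.09, level with all genes. In homozygous dendritic-like cells the medians were -0.06 (partners), 0.14 (targets and droplets), 0.14 (uptake) and -0.34 (hypoxia), against 0.03 over all genes. Cluster 13 held 30.7% of wild-type and 0.975% of homozygous monocyte-like cells, and its part in these medians was not tested.

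The genes whose levels ran most alike with each member over the 18 class and library sums were found by the Pearson correlation of log2(CPM + 1), given as a description because sums of 1 library share depth and cells. Lpl ran most alike with Gdpd5 (0.87), Elovl6 (0.86), a fatty acid elongase gene, and Bax (0.84). Pparg ran with Ildr1 (0.93), Cd22 (0.92) and Calhm6 (0.92), Plin2 with Eif4ebp1 (0.92), Pkm (0.90) and App (0.89), and Angptl4 with Gm15401 (0.95), Gm26512 (0.94) and Ampd2 (0.93). Ucp2 ran with Lilra6, Krt80 and Sgms1 (each 0.96), Ppard with Mtmr12 (0.97), Fbxw7 (0.97) and A630001O12Rik (0.96), and Hilpda with Mzf1 (0.88), 3110045C21Rik (0.77) and A930005H10Rik (0.76). Cd36, Vldlr and Pdk4 had too few UMIs, under 200, for such a comparison.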

How the data were processed

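Raw UMI counts for each gene in each barcode are what the authors deposited; they come from Cell Ranger 8.0.1 per the file headers and carry no normalization. The submitters' processing notes also name STAR and mm10 as build; the annotation release is not given in the sources used here. The lowest barcode total was 500 UMIs, so the barcodes had been filtered before deposit. The kept cells were 59.4%, 74.2% and 53.2% of 9432 wild-type, 10718 heterozygous and 8115 homozygous barcodes, which held 77173735, 78426908 and 54160590 UMIs, and the mitochondrial limit removed the others. Doublets were kept: Scrublet's automatic call in scanpy marked 0 cells in each library and so did not work, and an alternative removed the top scores instead.

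A cell got the class with the highest mean z score of log-transformed counts over its markers, given a score of at least 0.25, at least 3 markers with a UMI and a margin of 0.1; 17 lists were used. Leiden clusters (resolution 1.0, 30 principal components, 15 neighbours, 2000 variable genes) left out the 10 genes, Fabp4, sex-linked and antigen receptor genes. UMIs were summed by library and class and given as CPM. Intervals are exact Poisson for levels, exact binomial (Clopper-Pearson) for shares (the limit given for 0 cells is instead 3 counts of the class's cells) and exact conditional for ratios. Where a class had 0 UMIs, the fold bound uses 3 counts in that library's class and the point value of the other library. It therefore leaves out the counting error of that point value. The members and gene lists were chosen with earlier results of these data known. All 10 members are described; from each pathway list those past 2-fold and the most abundant were eligible, up to 3 each; up to 3 most alike genes per member were named.

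Tools were Python 3.11.15, scanpy 1.11.5, igraph 0.11.9, scikit-learn 1.9.0, scipy 1.17.1, numpy 2.4.6, matplotlib 3.10.9 and pandas 2.3.3. The ratio intervals were tested on simulated counts: for homozygous over wild type in monocyte-like cells (12172 genes) they held the true value for 95.9% of unshifted genes, and for 92.0% at log2 1, 90.0% at -1, 94.0% at 2 and 98.0% at -2, 50 genes each; for heterozygous over wild type the shares were 95.7%, 96.0%, 92.0%, 96.0% and 94.0%. Those counts follow the Poisson model that the intervals assume. Alternatives were other cell filters, gate margins, doublet removal, Leiden clusters, size factors, equal weight per cell, and subsets by sex-linked RNA.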

Additional observations from a re-analysis of the deposited data

Results flagged for a closer look

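In 6 cases a gene's ratio to the wild-type library had an interval above 0 in one class and below 0 in another. The difference between the classes was not itself tested in any of them, and the classes of a comparison share their libraries. Homozygous over wild type, Pparg had a log2 ratio of 1.58 in dendritic-like and -1.60 in granulocyte-monocyte progenitor-like cells, on 19 and 7 UMIs against 14 and 60. Heterozygous over wild type, Pparg had 1.11 in monocyte-like and -3.05 in granulocyte-monocyte progenitor-like cells. In the same comparison Plin2 had 0.16 in granulocyte-monocyte progenitor-like and 0.28 in stem and progenitor-like cells against -0.33 in monocyte-like cells, and Ucp2 had 0.09 in granulocyte-monocyte progenitor-like and 0.31 in immature neutrophil-like cells against -0.49 in dendritic-like cells.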

How the results depend on the processing

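Over 31 ratios and 13 settings, 289 of 330 alternative values lay within the interval of the reported value, 40 moved out of it, and 1 ratio reported as past 2-fold turned its direction. Ratios nearer 0 changed sign too: in monocyte-like cells the sign was kept in 10 of 12 settings for homozygous Pparg, 11 of 12 for heterozygous Lpl, 11 of 13 for heterozygous Plin2, 12 of 13 for Ppard and 10 of 13 for Ucp2 in both comparisons. It was kept in 8 of 9 for heterozygous Pparg, 8 of 9 for homozygous Ppard and 7 of 9 for heterozygous Ppard in dendritic-like cells, and in 6 of 9 for heterozygous Angptl4 in granulocyte-monocyte progenitor-like cells. Homozygous Lpl in monocyte-like cells was lower in all 12 settings it could be computed in; in cells with Y-linked RNA only, where the wild-type library had 0 Lpl UMIs in 6 cells and the homozygous one 17 in 37, no ratio could be given. The values below are log2 ratios over wild type in monocyte-like cells, heterozygous first and homozygous second where both are given. With Leiden clusters in place of the gate they were 1.85 and 0.13 for Pparg, 0.17 and -1.13 for Lpl and -0.16 and -0.30 for Plin2. Without cluster 13, chosen after seeing the data, they were -0.48 and -1.72 for Lpl and 0.05 and -0.13 for Plin2, and 0.65 for heterozygous Pparg. Weighted to the wild-type cluster mix, also chosen after seeing the data, they were 3.75 and 3.01 for Pparg and -0.64 and -2.44 for Lpl. Homozygous Plin2 was -0.37 in this setting. The Pparg values rest on 54 heterozygous and 15 homozygous cells of cluster 13, of which 24 and 3 had a Pparg UMI. In cells with Y-linked RNA only, of which the wild-type library had 6, heterozygous Pparg changed sign to -0.88 (-3.43 to 4.46), and Plin2 was 0.33 and -0.70. In cells with Xist only heterozygous Lpl was -0.41. With equal weight per cell heterozygous Pparg was 1.69 and homozygous Plin2 -0.39, and with median-of-ratios size factors homozygous Plin2 was -0.61. Apart from the added cluster settings, the cause of these shifts was not tested. Size factors shifted the ratios of all kept heterozygous cells by 0.15, of heterozygous mature neutrophil-like cells by 0.16 and of homozygous ones by 0.13, and other classes by under 0.1. The share of genes past 2-fold depends on the UMI minimum: at 1 UMI it was 29.4% (homozygous) and 28.7% (heterozygous) in monocyte-like cells, and at 100 UMIs 5.35% and 2.74%.

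No paired analysis was possible because each genotype has 1 library. Depth limits Cd36, Vldlr and Pdk4 in every class, and each member but Ppard, Plin2 and Ucp2 in dendritic-like cells, of which the wild-type library had 68 and the homozygous library 61.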

Other observations

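The barcodes removed by the mitochondrial limit, 3828 wild-type, 2761 heterozygous and 3797 homozygous, held Lpl at 4.39, 1.62 and 0.992 CPM, against 9.86, 6.19 and 5.58 CPM in the kept cells of all classes. Plin2 was at 93.9, 100.4 and 72.0 CPM there and Ucp2 at 234, 249.5 and 219.8 CPM. Pparg was at 5.18, 3.43 and 3.72 CPM in these barcodes and 3.31, 4.58 and 3.30 CPM in kept cells, so it was not lower among removed than kept barcodes in the wild-type and homozygous libraries. These barcodes were given no class.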
